A study of Homo sapiens with 6 samples.

Results

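The genes of the subunits of RNA polymerases I, II and III (Pol I, Pol II and Pol III) were compared between 3 wild-type (WT) and 3 *FGFR2* KO HaCaT cell lines. They were chosen by name alone, as the protein-coding genes whose symbol is POLR1, POLR2 or POLR3 followed by a capital letter, a rule that uses no measured value. Of the 21475 genes analysed, 34 met this rule, and all 34 passed the minimum of a mean of 0.5 FPKM over the libraries, as did 12241 genes in all. They carry 33 symbols, since *POLR2J3* is given to 2 gene identifiers, and they fall into 6 genes of Pol I, 11 of Pol II, 10 of Pol III, 2 shared by Pol I and Pol III and 5 shared by all 3 enzymes.

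HaCaT is a line of human keratinocytes that became immortal spontaneously. The labels give the groups as WT and *FGFR2* KO, with 3 libraries each, and per the study's methods the KO lines are single-cell clones made with Cas9 and 1 guide RNA against *FGFR2*, which encodes a fibroblast growth factor receptor. The sequenced WT lines are described as clonally expanded too, and which of the study's numbered WT lines is which replicate is not given in the sources used here. The study also counts the original cell population, which is not a clone, among its WT lines as WT 1. All lines were grown in serum-containing medium, and poly(A)-selected RNA was sequenced in 1 library per line, so the products of Pol I and Pol III, which lack a poly(A) tail, were not measured. Values are FPKM, fragment numbers divided by gene length and by the depth of the library, and wherever 3 values of a group are listed they stand in the order of replicates 1, 2 and 3 of the labels.

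Pol I transcribes the precursor of the large ribosomal RNAs in the nucleolus, Pol II transcribes messenger RNAs, and Pol III makes transfer RNAs, 5S ribosomal RNA and other short RNAs. Each enzyme is built around its own pair of large catalytic subunits, to which it adds subunits of its own and a set that the enzymes share. Output of Pol I and Pol III limits the making of ribosomes and is known to follow growth signals in many cell types.

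*FGFR2* itself was at 21.6, 39.7 and 15.0 FPKM in the WT lines and 3.04, 2.26 and 4.31 FPKM in the KO lines, so that all KO libraries were below the WT range. Estimated depth was 67600000 to 87800000 fragments per library. Mitochondrial genes took 27.6%, 21.5% and 22.2% of the FPKM in the WT lines and 15.8%, 23.7% and 11.9% in the KO lines, so the share left to nuclear genes differed between libraries. All 10 keratinocyte markers were detected, at a summed 12110 to 21920 FPKM in WT and 17530 to 35160 FPKM in KO lines, and the summed markers of fibroblasts, melanocytes, leukocytes and endothelial cells reached at most 33.2 FPKM in any library. In bulk RNA, a larger share of cells that express a gene and more RNA of that gene per cell cannot be told apart.

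Most subunit genes were higher in the KO lines, and the median difference was larger for Pol I and Pol III than for Pol II. The median log2 fold change, KO minus WT on the log2(FPKM + 0.5) scale, was 0.39 over the 34 genes and 0.09 over all 12241 tested genes. By class it was 0.66 for Pol I, 0.48 for Pol III, 0.38 for the 7 shared subunits and -0.07 for Pol II, or 0.28 for Pol II without the near-identical genes of the *POLR2J* family. Of the 34 genes, 26 (76.5%) were higher and 8 lower in KO, and of all tested genes 60.6% were higher.

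No single subunit gene passed the test, and neither did *FGFR2*, with a log2 fold change of -2.73 (SE 0.36, 95% CI -3.58 to -1.89) and an adjusted p of 0.261 in limma. In limma with Benjamini-Hochberg adjustment over all tested genes, 0 of the 34 were called at an adjusted p up to 0.05 together with a log2 difference of 0.5 or more in either direction, and the share over all tested genes was 0% as well. Without adjustment, at a p up to 0.05 and the same fold, 10 subunit genes (29.4%) were higher in KO, against 10.2% of all tested genes, and 0 were lower, against 2.33%. In 13 subunit genes (38.2%) every KO library lay above every WT library, against 18.3% of all tested genes, and in 1 every KO library lay below, against 5.77%. With 3 lines in each group, the smallest p that a two-sided exact permutation test allows for a gene is 0.1. The study's own DESeq2 analysis, a different test, reported differentially expressed genes at a false discovery rate up to 0.05, *FGFR2* among them. The absence of calls here holds for the main limma fit on log2(FPKM + 0.5). The count of 10 was 5 under median-of-ratios scaling, against 6.36% of all tested genes, and with library weights estimated by limma 11 subunit genes (and 11.4% of all tested genes) were called after adjustment, in a fit that gave WT replicate 1 89.7% of the weight of the WT libraries.

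**Figure D1:**
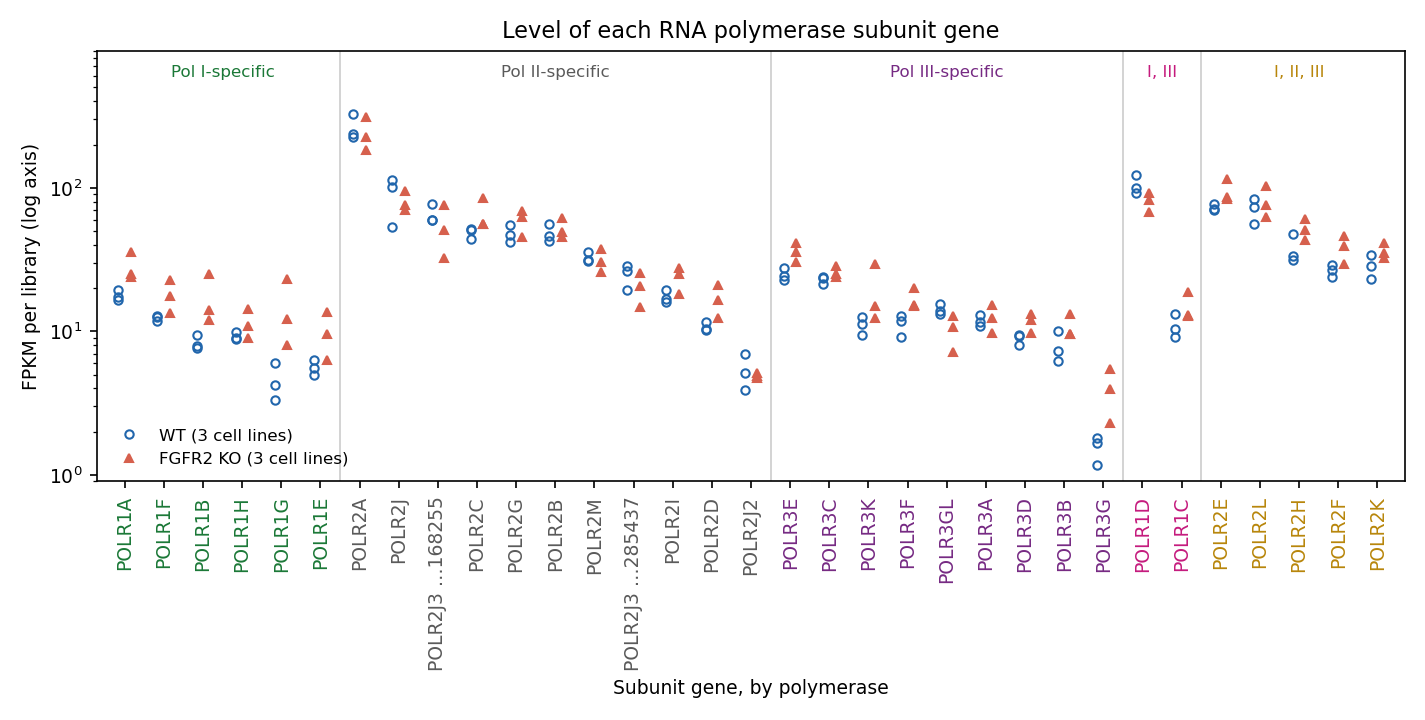
FPKM on a log axis for 33 of the 34 subunit genes, with 1 open circle per WT line and 1 filled triangle per KO line, grouped by the enzyme the subunit belongs to. *POLR2A* has the highest level, at 184 to 325 FPKM, and *POLR3G* the lowest, at 1.17 to 5.43 FPKM.

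The subunits specific to Pol I were the class with the largest median difference, and all 6 had a positive log2 fold change, from 0.26 to 1.48. *POLR1A* encodes the largest subunit, which forms the catalytic centre together with the product of *POLR1B*. *POLR1A* (ENSG00000068654, chromosome 2 from 86020216 to 86106155 in GRCh38) was at 17.3, 16.5 and 19.4 FPKM in the WT lines and 23.8, 25.3 and 35.4 FPKM in the KO lines. *POLR1B* (ENSG00000125630, chromosome 2 from 112541915 to 112579818 in GRCh38) was at 7.65, 9.45 and 7.87 FPKM in the WT lines and 14.1, 11.96 and 25.0 FPKM in the KO lines. For both genes all KO lines lay above all WT lines, and KO replicate 3 was the highest. The log2 fold change was 0.63 (SE 0.18, 95% CI 0.21 to 1.05) for *POLR1A* and 0.92 (SE 0.27, 95% CI 0.30 to 1.55) for *POLR1B*, with an adjusted p of 0.261 in limma for each.

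*POLR1G* and *POLR1E* encode the pair of subunits that form a heterodimer found only on Pol I. *POLR1G* (ENSG00000117877, chromosome 19 from 45406644 to 45410737 in GRCh38) had the largest log2 fold change of the 34 genes, with 4.25, 3.32 and 6.01 FPKM in the WT lines and 12.3, 8.05 and 23.2 FPKM in the KO lines. The groups did not overlap, and the KO mean was 3.21 times the WT mean. Its log2 fold change was 1.48 (SE 0.38, 95% CI 0.61 to 2.36), with an adjusted p of 0.261 in limma. *POLR1E*, its partner, was at 4.99, 5.55 and 6.34 FPKM in the WT lines and 9.58, 6.26 and 13.5 FPKM in the KO lines. Here KO replicate 2 lay within the WT range, and the log2 fold change was 0.69 (SE 0.27, 95% CI 0.06 to 1.32), with an adjusted p of 0.276 in limma.

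*POLR1G* overlaps *ERCC1*, a DNA repair gene on the opposite strand. Of the distinct 31-base words in the annotated *POLR1G* transcripts, the word length that Kallisto uses by default, 58.5% also occur in transcripts of other genes on either strand, and 48.3% occur in those of *ERCC1*. *ERCC1* was at 41.4, 47.5 and 45.7 FPKM in the WT lines and 53.9, 47.9 and 44.7 FPKM in the KO lines, with a log2 fold change of 0.12 (SE 0.13, 95% CI -0.19 to 0.43). The libraries are strand-specific, but whether the strand was used in the quantification is not given in the sources used here. The value of *POLR1G* is uncertain to that extent, and without it the median log2 fold change of the other 5 Pol I genes was 0.63.

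The remaining Pol I genes differed less. *POLR1F*, which encodes a stalk subunit that contacts the initiation factor RRN3, was at 11.8 to 12.8 FPKM in WT and at 13.4 to 22.9 FPKM in KO, without overlap, with a log2 fold change of 0.49 (SE 0.20, 95% CI 0.02 to 0.96). *POLR1H*, which encodes a small zinc-binding subunit that takes part in RNA cleavage, was at 8.88 to 9.97 FPKM in WT and 8.94 to 14.3 FPKM in KO. The groups overlapped, and its log2 fold change was 0.26 (SE 0.19, 95% CI -0.19 to 0.71).

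**Figure D2:**
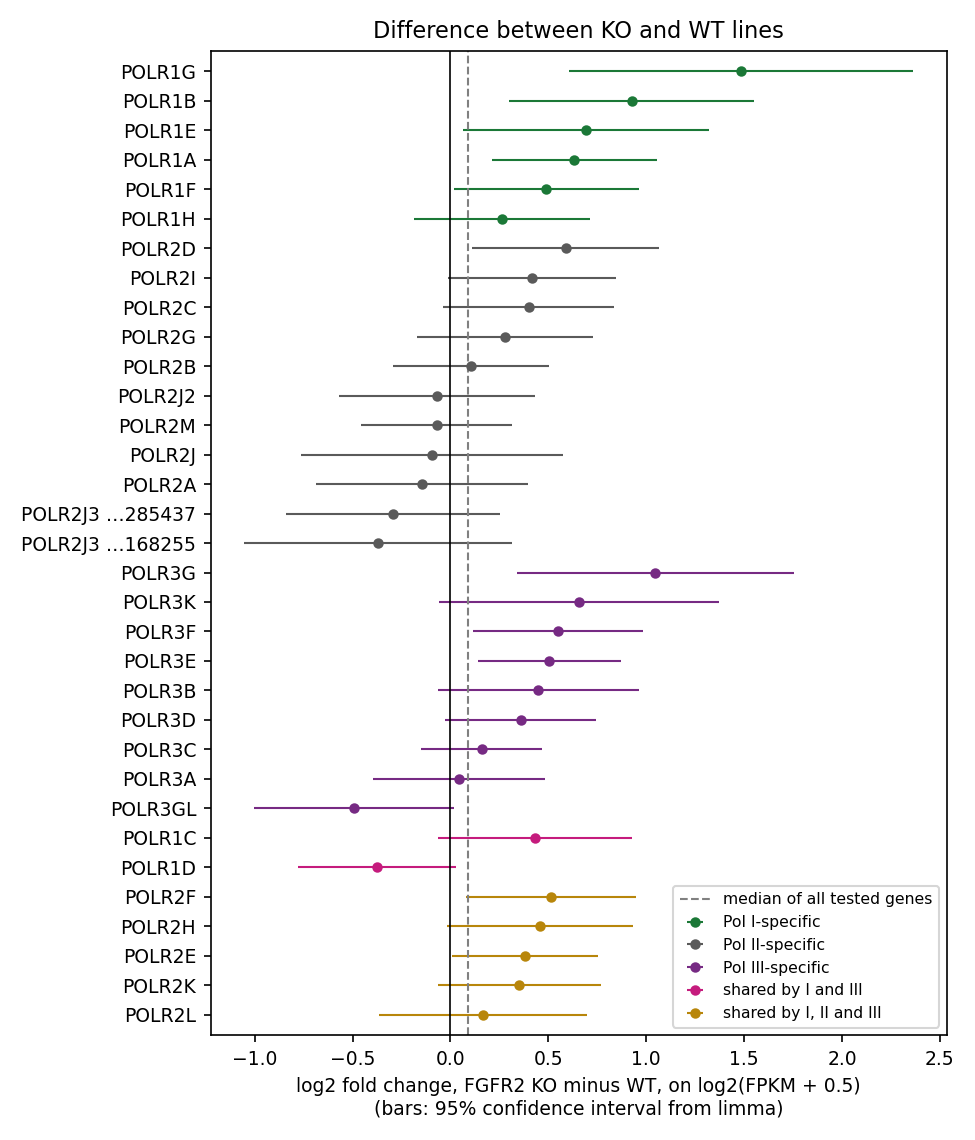
Log2 fold change of 33 of the 34 subunit genes, KO minus WT on log2(FPKM + 0.5), with the 95% confidence interval from limma, coloured by class, and a dashed line at 0.09, the median of all tested genes. All 6 Pol I genes and every Pol III gene drawn except *POLR3GL* lie to the right of 0, whereas 6 of 11 Pol II genes lie to the left. These 6 include all entries of the *POLR2J* family, whose values are uncertain.

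The subunits specific to Pol II were mixed in direction, with 5 higher and 6 lower in KO. Without the near-identical genes of the *POLR2J* family, 5 were higher and 2 lower. *POLR2A* encodes the largest subunit, whose long C-terminal repeat domain is phosphorylated during transcription, and it had the highest level of the 34 genes. *POLR2A* (ENSG00000181222, chromosome 17 from 7484366 to 7514616 in GRCh38) was at 325, 226 and 235 FPKM in the WT lines and 225, 309 and 184 FPKM in the KO lines. *POLR2B*, the second largest subunit, was at 42.3, 55.7 and 46.0 FPKM in the WT lines and 48.8, 45.1 and 61.4 FPKM in the KO lines. The groups overlapped for both genes. The log2 fold change was -0.14 (SE 0.23, 95% CI -0.69 to 0.40) for *POLR2A* and 0.11 (SE 0.17, 95% CI -0.29 to 0.50) for *POLR2B*, and the sign of each turned when KO replicate 3 was left out, to 0.03 and -0.02. Without WT replicate 1 that of *POLR2A* was 0.02.

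*POLR2D* was the only Pol II gene past the unadjusted threshold (9.09% of the class, against 10.2% of all tested genes). In 2 Pol II genes (18.2%) every KO line lay above every WT line, against 18.3% of all tested genes. *POLR2D* encodes a subunit of the stalk, together with *POLR2G*. *POLR2D* (ENSG00000144231, chromosome 2 from 127843553 to 127858155 in GRCh38) was at 10.2, 10.4 and 11.7 FPKM in the WT lines and 16.6, 12.4 and 21.1 FPKM in the KO lines, without overlap and again with the highest value in KO replicate 3. Its log2 fold change was 0.59 (SE 0.20, 95% CI 0.11 to 1.07), with an adjusted p of 0.261 in limma. *POLR2C*, which encodes an assembly subunit, also lay higher in every KO line, at 43.9 to 51.7 FPKM in WT and 56.2 to 84.2 FPKM in KO, with a log2 fold change of 0.40 (SE 0.19, 95% CI -0.04 to 0.84). *POLR2G* had a log2 fold change of 0.28 (SE 0.19, 95% CI -0.17 to 0.73), *POLR2I*, a zinc-binding subunit, one of 0.41 (SE 0.18, 95% CI -0.01 to 0.84), and *POLR2M*, which encodes a protein that associates with Pol II, one of -0.07 (SE 0.17, 95% CI -0.46 to 0.32), and their groups overlapped. The sign of *POLR2M* turned with library weights and without WT replicate 2 or KO replicate 2. Of the 31-base words of *POLR2I*, 67.7% are shared with other genes, so its value is uncertain.

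Of the 6 lower Pol II genes, 4 belong to the *POLR2J* family, near-identical copies on chromosome 7 of the gene of an assembly subunit. *POLR2J* was at 101, 52.9 and 112 FPKM in the WT lines and 75.4, 94.3 and 69.9 FPKM in the KO lines, and *POLR2J2* at 5.11, 6.90 and 3.93 FPKM in the WT lines and 5.14, 4.72 and 4.92 FPKM in the KO lines. The 2 identifiers of *POLR2J3* were at 59.2, 59.3 and 76.7 FPKM in the WT lines and 75.3, 51.1 and 32.2 FPKM in the KO lines for ENSG00000168255, and at 28.5, 19.4 and 26.5 FPKM in the WT lines and 20.8, 25.4 and 14.8 FPKM in the KO lines for ENSG00000285437. None of the 4 separated the groups, and the log2 fold change was -0.09 for *POLR2J*, -0.07 for *POLR2J2*, and -0.37 and -0.29 for the 2 entries of *POLR2J3*, or -0.057 and -0.087 without KO replicate 3. *POLR2J2* shares 98.5% of its 31-base words with other genes, *POLR2J* 35.9% and the 2 entries of *POLR2J3* 87% and 55.6%. Fragments can thus be split in more than 1 way among the 4 entries, and between them and genes outside these entries. Summed, the 4 entries gave 194, 138 and 219.6 FPKM in the WT lines and 177, 176 and 122 FPKM in the KO lines, which overlap. Without this family the median log2 fold change of the other 7 Pol II genes was 0.28, with 5 higher and 2 lower.

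**Figure D3:**
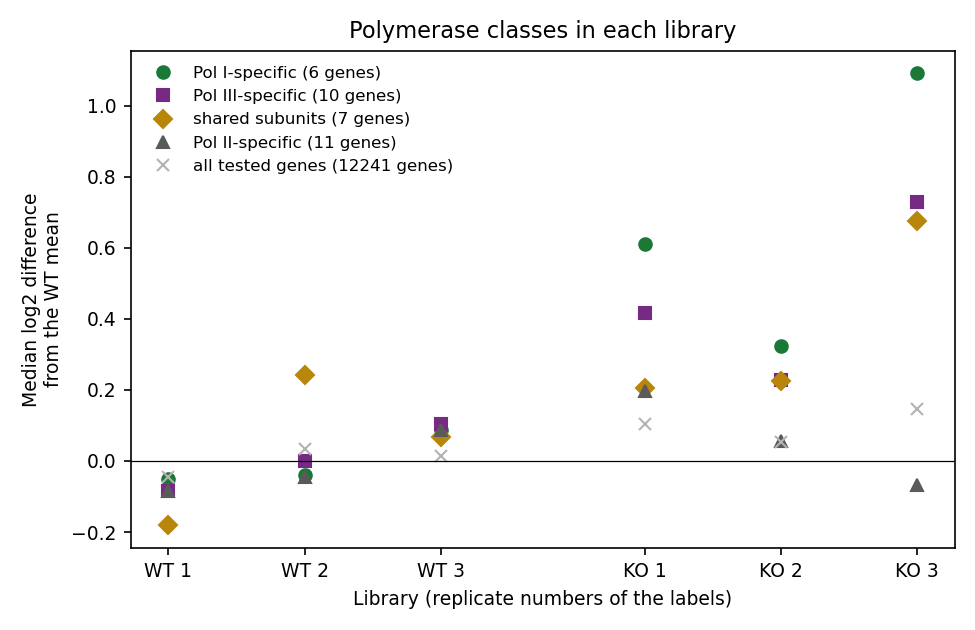
Median log2 difference from the WT mean over the genes of each class, in each of the 6 libraries, with all tested genes as grey crosses. In the 3 KO libraries the Pol I median is 0.61, 0.32 and 1.09 and the Pol III median 0.42, 0.23 and 0.73, whereas the Pol II median is 0.20, 0.06 and -0.07, or 0.21, 0.07 and 0.52 without the *POLR2J* family, which is not drawn.

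The subunits specific to Pol III were higher in 9 of 10 genes, with log2 fold changes from 0.05 to 1.05 in these 9. The catalytic pair did not separate the groups. *POLR3A*, the largest subunit, was at 11.6, 13.1 and 10.9 FPKM in the WT lines and 9.77, 12.3 and 15.2 FPKM in the KO lines. *POLR3B*, the second largest, was at 7.26, 6.22 and 10.0 FPKM in the WT lines and 9.57, 9.59 and 13.2 FPKM in the KO lines. Both overlapped between groups, with log2 fold changes of 0.05 (SE 0.19, 95% CI -0.39 to 0.48) and 0.45 (SE 0.22, 95% CI -0.07 to 0.96). *POLR3A* lies on chromosome 10. With the median of all genes removed, the 463 tested genes of this chromosome had medians of -0.43, -0.16 and -0.19 in the KO lines. In the WT lines these medians, also taken against the WT mean, were 0.02, 0.14 and -0.16. The log2 fold change of *POLR3A* was 0.21 once chromosome medians were removed. The same step lowered the median of the Pol III genes from 0.48 to 0.36.

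Other Pol III genes were past the unadjusted threshold. *POLR3F* encodes a subunit of the trimer that opens the promoter, and *POLR3E* one of the heterodimer that acts in initiation and termination. *POLR3F* (ENSG00000132664, chromosome 20 from 18466878 to 18484648 in GRCh38) was at 11.8, 9.20 and 12.8 FPKM in the WT lines and 15.2, 15.0 and 20.04 FPKM in the KO lines. *POLR3E* (ENSG00000058600, chromosome 16 from 22297375 to 22335101 in GRCh38) was at 22.9, 27.6 and 24.4 FPKM in the WT lines and 35.7, 30.5 and 41.1 FPKM in the KO lines. All KO lines lay above all WT lines for both genes, and the log2 fold change was 0.55 (SE 0.19, 95% CI 0.11 to 0.98) for *POLR3F* and 0.51 (SE 0.16, 95% CI 0.14 to 0.87) for *POLR3E*, with an adjusted p of 0.261 in limma for each. *POLR3D*, the partner of *POLR3E*, was at 8.09 to 9.42 FPKM in WT and 9.76 to 13.2 FPKM in KO, also without overlap, with a log2 fold change of 0.36 (SE 0.16, 95% CI -0.03 to 0.74). Once chromosome medians were removed, the log2 fold change of *POLR3D*, which lies on chromosome 8, was 0.15. *POLR3C*, another subunit of the trimer, and *POLR3K*, a small subunit that acts in RNA cleavage and termination, overlapped between groups. Their log2 fold changes were 0.16 (SE 0.13, 95% CI -0.15 to 0.47) and 0.66 (SE 0.31, 95% CI -0.06 to 1.37), and that of *POLR3K* dropped to 0.30 without KO replicate 3.

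Pol III carries either the product of *POLR3G* or that of its paralog *POLR3GL* in its trimer, and *POLR3G* is known to be high in stem cells and tumour cells and *POLR3GL* in most differentiated tissues. *POLR3G* (ENSG00000113356, chromosome 5 from 90471748 to 90514557 in GRCh38) was at 1.66, 1.17 and 1.82 FPKM in the WT lines and 3.95, 2.31 and 5.43 FPKM in the KO lines. *POLR3GL* (ENSG00000121851, chromosome 1 from 145964690 to 145978848 in GRCh38) was at 13.3, 13.8 and 15.5 FPKM in the WT lines and 10.8, 12.7 and 7.13 FPKM in the KO lines. Every KO line lay above every WT line for *POLR3G* and below every WT line for *POLR3GL*, which was the only subunit gene with this order. The log2 fold change was 1.05 (SE 0.30, 95% CI 0.34 to 1.75) for *POLR3G* and -0.49 (SE 0.22, 95% CI -1.001 to 0.02) for *POLR3GL*, with adjusted p of 0.261 and 0.305 in limma.

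The sum of both genes overlapped between the groups. It was 14.9, 15.0 and 17.3 FPKM in the WT lines and 14.7, 15.0 and 12.6 FPKM in the KO lines. *POLR3G* made up 11.1%, 7.82% and 10.5% of that sum in the WT lines and 26.8%, 15.4% and 43.2% in the KO lines, with a mean of 9.82% ± 1.76 (SD, n = 3) in WT and 28.5% ± 14.0 (SD, n = 3) in KO. The share of *POLR3G* was thus above the WT range in each KO line, and it varied more among the KO lines than among the WT lines. In every library *POLR3GL* was the higher of the 2 genes. This share was looked at after the values of both genes were known and is given as a description.

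**Figure D4:**
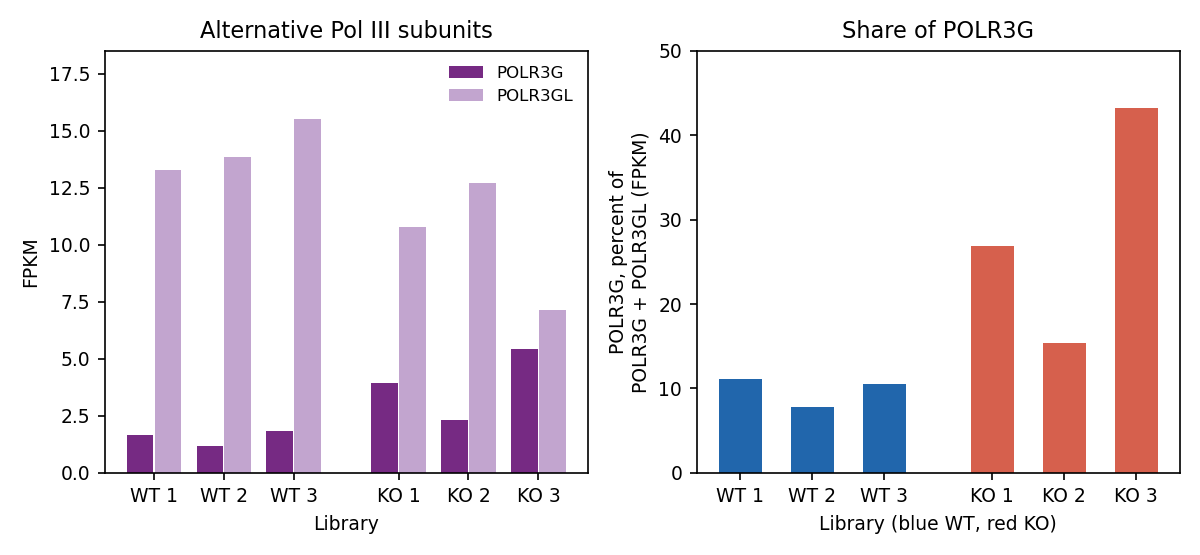
Left, FPKM of *POLR3G* and *POLR3GL* as bars in each library; right, *POLR3G* as a percentage of the sum of both genes. The share is 7.82% to 11.1% in the WT lines and 15.4% to 43.2% in the KO lines.

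The 2 subunits shared by Pol I and Pol III, which pair with each other early in assembly, differed in direction. *POLR1C* (ENSG00000171453, chromosome 6 from 43509702 to 43562419 in GRCh38) was at 9.07, 13.3 and 10.3 FPKM in the WT lines and 13.04, 12.8 and 18.9 FPKM in the KO lines. *POLR1D* (ENSG00000186184, chromosome 13 from 27620742 to 27744237 in GRCh38) was at 92.1, 123.5 and 100.1 FPKM in the WT lines and 92.3, 82.7 and 68.0 FPKM in the KO lines. KO replicate 1 lay within the WT range for *POLR1D* and KO replicates 1 and 2 within it for *POLR1C*. The log2 fold change was 0.43 (SE 0.21, 95% CI -0.06 to 0.93) for *POLR1C* and -0.38 (SE 0.17, 95% CI -0.78 to 0.03) for *POLR1D*, with adjusted p of 0.337 and 0.314 in limma.

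All 5 subunits common to the 3 enzymes had a positive log2 fold change, from 0.17 to 0.51. *POLR2F* was the only one past the unadjusted threshold (20%, against 10.2% of all tested genes). It encodes a subunit that fastens the clamp of the enzyme. *POLR2F* (ENSG00000100142, chromosome 22 from 37952607 to 38041915 in GRCh38) was at 26.5, 23.8 and 28.9 FPKM in the WT lines and 39.3, 29.6 and 46.4 FPKM in the KO lines, without overlap, with a log2 fold change of 0.51 (SE 0.19, 95% CI 0.08 to 0.95) and an adjusted p of 0.263 in limma. *POLR2E*, which encodes a subunit of the jaw, also separated the groups, at 69.7 to 76.7 FPKM in WT and 83.5 to 116 FPKM in KO, with a log2 fold change of 0.38 (SE 0.16, 95% CI 0.01 to 0.75). For *POLR2H*, *POLR2K* and *POLR2L* the groups overlapped, with log2 fold changes of 0.46, 0.35 and 0.17, and that of *POLR2L* was -0.026 without KO replicate 3. That of *POLR2K* was 0.15 once chromosome medians were removed.

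The size of the difference between the classes depended on the *POLR2J* family, whose values are uncertain. With all Pol II genes, the Pol I median exceeded the Pol II median by 0.41, 0.27 and 1.16 in KO replicates 1, 2 and 3, and by 0.03, 0.00 and 0.00 in the WT lines. The Pol III median exceeded the Pol II median by 0.22, 0.17 and 0.80 in the KO lines, and the 2 medians lay within 0.05 of each other in the WT lines. Without the 4 entries of the *POLR2J* family, the Pol I median exceeded that of Pol II by 0.40, 0.25 and 0.57 in the KO lines and by 0.06, -0.10 and 0.11 in the WT lines. The Pol III median then exceeded it by 0.21, 0.16 and 0.21 in the KO lines and by 0.03, -0.06 and 0.13 in the WT lines, so the larger gap in KO replicate 3 was seen for Pol III only with this family included. Since the genes of a class are measured in the same libraries and are not replicates, no test was run on these medians.

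KO replicate 3 stood out among the subunit genes. It was the highest of the 3 KO lines in 26 of the 34 genes (76.5%), against 46.6% of all tested genes, and KO replicate 2 was the lowest in 23 of them (67.6%), against 41.3%. The mitochondrial share of FPKM has the opposite order, with 11.9% in KO replicate 3 and 23.7% in KO replicate 2, and its part in the result was not tested. Without KO replicate 3 the class medians were 0.45 for Pol I, 0.30 for Pol III, 0.26 for the shared subunits and -0.003 for Pol II, and the subunit genes past the unadjusted threshold dropped from 10 to 4, against 4.36% of all tested genes. The log2 fold change of 13 subunit genes was then over 1.5 times smaller, among them *POLR1H* (0.091), *POLR1C* (0.26), *POLR2C* (0.21) and *POLR3GL* (-0.27), and that of another 4 turned sign. Scaling each library to the FPKM of its nuclear genes gave class medians of 0.58 for Pol I, 0.40 for Pol III and -0.14 for Pol II, and 7 genes past the unadjusted threshold, against 7.6% of all tested genes.

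**Figure D5:**
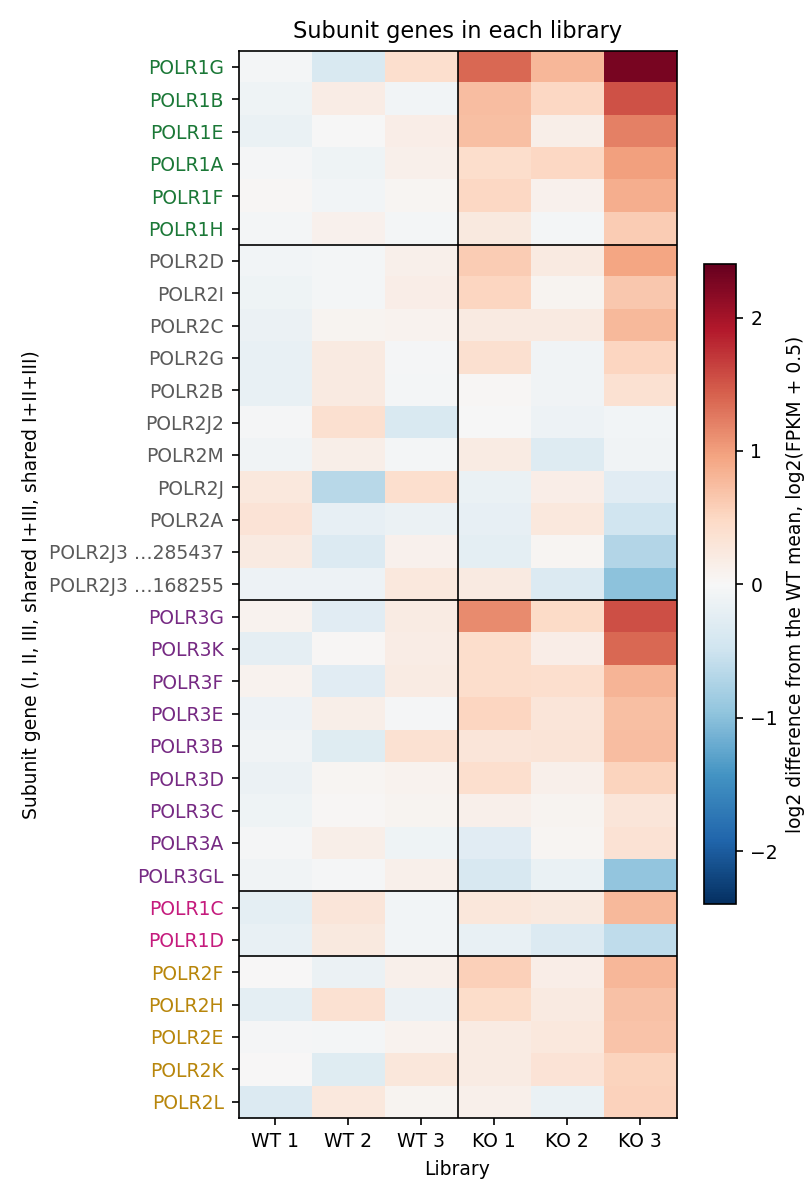
Log2 difference of 33 of the 34 subunit genes from their WT mean, on log2(FPKM + 0.5), in the 6 libraries, with red above and blue below the WT mean. The column of KO replicate 3 holds the highest KO value in most rows, and the lowest in *POLR2A*, *POLR2J*, both entries of *POLR2J3*, *POLR3GL* and *POLR1D*.

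The promoters of the subunit genes were searched for the E box CACGTG, which is bound by MYC with MAX and by USF factors. Binding of these factors was not tested in these lines. RefSeq windows of 300 bases, from 250 before to 50 after the start site in GRCh38.p14, were at hand for 24 of the 33 symbols, and not, among others, for *POLR1E*, *POLR2G*, *POLR2I*, *POLR2J*, *POLR2J3*, *POLR2K*, *POLR3D* and *POLR3G*. The E box, which reads the same on both strands, was found in 4 of the 30 windows of these genes, each in a different gene, and in 7.26% of all 35116 windows. These windows of 30 bases are shown with the E box in capitals, since they are the subunit promoters that hold it. Distances are counted from the RefSeq start site. For *POLR3E* this site lies inside the gene bounds given above, which came from GENCODE. The E box begins 12 bases before the start site in *POLR1G* (chr19:45406620-45406649, plus strand), 35 before it in *POLR3A* (chr10:78029533-78029562, minus strand), 196 before it in *POLR3C* (chr1:145823992-145824021, plus strand) and 1 before it in *POLR3E* (chr16:22297396-22297425, plus strand).
POLR1G: cccctttggatcCACGTGgtctgcaacctg
POLR3A: agaggaagcggaCACGTGggacactctacg
POLR3C: gcccgcgtcggtCACGTGagttggccaggc
POLR3E: cccgctccccccCACGTGtccgccggagtt
The 4 genes with an E box had log2 fold changes of 1.48, 0.05, 0.16 and 0.51 in the order shown, which cover most of the positive range of the 34 genes. A match of these letters is a description of the sequence.

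The window of *POLR3E* also overlaps a gene that its own enzyme transcribes. The leucine transfer RNA gene TRL-AAG2-4 lies on the same strand (chr16:22297140-22297221), with 63 of its 82 bases inside the window. It ends 188 bases before the RefSeq start site of *POLR3E*. Of all windows, 29 (0.0826%) overlap a transfer RNA gene, and *POLR3E* is the only subunit gene among them. The B box, an internal promoter element of transfer RNA genes, was searched as GTTCGANTC on both strands and occurs in 0.253% of all windows, and among the subunit genes in that of *POLR3E*. It is shown in capitals with its surroundings (chr16:22297189-22297221, plus strand).
TRL-AAG2-4: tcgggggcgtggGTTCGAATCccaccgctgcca
The level of this transfer RNA was not measured in these libraries.

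Of 67 genes that act with the polymerases, 59 (88.1%) were higher in KO, against 60.6% of all tested genes, with a median log2 fold change of 0.21. The lists of these genes were chosen with earlier results of these data known, so their shares are given as a description. In limma 0 of the 67 were called after adjustment, 10 were past the unadjusted threshold upwards (14.9%, against 10.2% of all tested genes) and 0 downwards, and in 23 every KO line lay above every WT line (34.3%, against 18.3%). The count of 10 was 5 with median-of-ratios scaling, where 10.6% of all tested genes were past the threshold in either direction. It was also 5 with quantile normalization (10.7%) and with chromosome medians removed (10.3%), and 14 with TPM scaling (13.8%). By list, the median was 0.32 for 10 Pol I factors, 0.18 for 25 general factors of Pol II, 0.18 for 17 factors of Pol III, 0.31 for 11 factors of assembly and nuclear import and 0.51 for 4 genes of the mitochondrial polymerase.

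Among the Pol I factors, 3 of 10 (30%) were past the unadjusted threshold, all higher in KO, against 10.2% of all tested genes. *NOLC1* and *TCOF1* encode nucleolar phosphoproteins that assist the transcription and processing of ribosomal RNA. *NOLC1* was at 44.6, 38.7 and 44.5 FPKM in the WT lines and 64.2, 70.1 and 133 FPKM in the KO lines, and *TCOF1* at 34.2, 23.7 and 39.6 FPKM in the WT lines and 48.5, 50.3 and 78.8 FPKM in the KO lines. *CAVIN1*, whose product is a coat protein of caveolae that was also described as a release factor of Pol I, was at 176, 129 and 162 FPKM in the WT lines and 224, 207 and 245 FPKM in the KO lines. All KO lines lay above all WT lines for these 3 genes, with log2 fold changes of 0.98 (SE 0.27, 95% CI 0.35 to 1.61), 0.85 (SE 0.25, 95% CI 0.26 to 1.44) and 0.54 (SE 0.16, 95% CI 0.17 to 0.92).

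Among the assembly factors, 3 of 11 (27.3%) were past the unadjusted threshold, all higher in KO, against 10.2% of all tested genes. *RUVBL1* and *RUVBL2* encode the paired ATPases of the R2TP chaperone complex, which helps to assemble the polymerases. *RUVBL1* was at 34.7, 35.7 and 42.4 FPKM in the WT lines and 65.2, 60.5 and 98.6 FPKM in the KO lines, and *RUVBL2* at 85.9, 82.9 and 113 FPKM in the WT lines and 134, 122 and 167 FPKM in the KO lines. Neither overlapped between groups, and the log2 fold changes were 0.95 (SE 0.21, 95% CI 0.47 to 1.43) and 0.59 (SE 0.18, 95% CI 0.16 to 1.01). *GPN3*, a GTPase needed for the nuclear import of Pol II, was at 13.9, 12.4 and 16.1 FPKM in the WT lines and 23.2, 16.0 and 29.8 FPKM in the KO lines, with overlap between groups and a log2 fold change of 0.65 (SE 0.23, 95% CI 0.10 to 1.19).

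The lists of Pol II and Pol III factors held 1 such gene each. These shares, 4% and 5.88%, were below the 10.2% of all tested genes that were past the threshold upwards. *GTF2H2*, a subunit of the Pol II factor TFIIH, was at 3.60, 2.65 and 5.49 FPKM in the WT lines and 6.97, 5.67 and 11.1 FPKM in the KO lines, with a log2 fold change of 0.93 (SE 0.31, 95% CI 0.20 to 1.66). This gene has near-identical copies nearby on chromosome 5, so its value is uncertain. *GTF3C6*, a subunit of the Pol III factor TFIIIC, was at 10.98, 14.9 and 13.8 FPKM in the WT lines and 19.5, 14.5 and 26.8 FPKM in the KO lines, with a log2 fold change of 0.57 (SE 0.24, 95% CI 0.01 to 1.12), and its groups overlapped.

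For the mitochondrial enzyme, a single-subunit polymerase unrelated to the others in structure, *POLRMT* encodes the polymerase itself and *TFB2M* an initiation factor. *POLRMT* was at 26.4, 29.9 and 31.7 FPKM in the WT lines and 40.7, 37.4 and 52.5 FPKM in the KO lines, and *TFB2M* at 6.59, 8.13 and 7.12 FPKM in the WT lines and 11.1, 8.05 and 15.1 FPKM in the KO lines. All KO lines lay above all WT lines for *POLRMT* but not for *TFB2M*, and the log2 fold changes were 0.55 (SE 0.16, 95% CI 0.17 to 0.93) and 0.58 (SE 0.23, 95% CI 0.03 to 1.12). These were 2 of 4 genes in the list (50%), against 10.2% of all tested genes. The others were *TEFM*, at 0.47 (95% CI 0.02 to 0.92) without overlap, and *TFAM*, at 0.18 (95% CI -0.38 to 0.75) with overlap. The adjusted p in limma of the 10 genes named in these lists as past the unadjusted threshold was 0.261 to 0.294.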

How the data were processed

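Strand-specific libraries of poly(A)-selected RNA were made from 3 WT HaCaT cell lines and 3 *FGFR2* KO lines. The authors trimmed the reads with fastp 0.20.0, pseudoaligned them with Kallisto 0.46.1 to GRCh38.p13 with GENCODE gene models and deposited 1 FPKM value per gene and library. How the FPKM were calculated is not given in the sources used here. Of 21493 genes, 18 Y copies of pseudoautosomal genes were left out, and symbols and positions came from GENCODE release 44. FPKM are not counts. Depth was estimated from the steps between low values, of which 61.4% were whole fragments within 0.02 against 4% by chance, so most but not nearly all values gave whole reads, and no count model was run.

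KO and WT were compared on log2(FPKM + 0.5), a scale that understates the fold of low genes, for the 12241 genes whose mean reached 0.5 FPKM. limma 3.58.1 (R 4.3.3) was used with its trended empirical Bayes option, and p-values were adjusted over these genes by Benjamini-Hochberg. Values were given in every library for the catalytic pairs, the paralogs, *POLR1C* and *POLR1D*, the highest and the lowest gene and the genes past the unadjusted threshold, and of the other lists for genes past that threshold. One gene that met the rule enters the counts and medians and is not reported here on its own. The rule itself used symbols only. Which members to give in every library, and which other lists to use, was chosen with earlier results of these data known. Alternatives were other pseudocounts, filters, scalings and empirical Bayes steps, removal of chromosome medians, a replicate block, estimated library weights and omission of single libraries. Since the labels pair no lines, same-numbered WT and KO libraries were checked for shared deviations, which correlated at -0.21, 0.23 and 0.05.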

Additional observations from a re-analysis of the deposited data

How the results depend on the processing

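Each result was recomputed under the alternatives. Median-of-ratios scaling shifted the median log2 fold change of all tested genes from 0.09 to -0.02 and their split at the unadjusted threshold from 1251 higher and 285 lower to 779 higher and 524 lower. The subunit genes higher at that threshold, 10 in the analysis as reported, numbered 5 with median-of-ratios scaling (6.36% of all tested genes), 6 with quantile normalization (6.56%), 5 with chromosome medians removed (6.52%), and 4 (without KO replicate 3, 4.36%) to 14 (without KO replicate 2, 14.3%) when 1 library was left out, with 6 without WT replicate 1 (6.25%). Those lower, 0 as reported (2.33% of all tested genes), numbered 1 under 4 alternatives. These were median-of-ratios scaling (4.28% of all tested genes), quantile normalization (4.1%), scaling to nuclear genes (3.27%) and chromosome medians removed (3.77%). When 1 library was left out, the subunit genes lower in KO numbered 0 to 1, against 0.775% to 4.16% of all tested genes. The non-overlapping genes higher in KO numbered 13 to 20 when 1 library was left out, the most without KO replicate 2, where the share of all tested genes was also the highest, at 31.4%. Those lower in KO numbered 2 under the same 4 alternatives (7.77% to 11.2% of all tested genes) and 1 to 4 when 1 library was left out, with 4 without KO replicate 1 (10.9% of all tested genes), 3 without WT replicate 2 (8.79%) and 2 without WT replicate 1 (8.31%) or KO replicate 2 (13%). The 10 of 67 accessory genes past that threshold in either direction (12.5% of all tested genes) became 6 without a filter (5.08%), 5 with median-of-ratios scaling (10.6%), 5 with quantile normalization (10.7%), 6 with scaling to nuclear genes (10.9%), 5 with chromosome medians removed (10.3%), and 3 (without KO replicate 3, 5.14%) to 16 (without KO replicate 2, 18.4%) when 1 library was left out, with 4 without WT replicate 1 (7.83%).

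Library weights called 11 subunit genes after adjustment, against 11.4% of all tested genes, at an adjusted p in limma of 0.0313 to 0.0466, all higher in KO (among them *POLR1A*, *POLR1B*, *POLR1C*, *POLR1E*, *POLR1G*, *POLR2D*, *POLR2H*, *POLR2I*, *POLR3E* and *POLR3G*). In that fit WT replicate 1 took 89.7% of the weight of the WT libraries. No other alternative called a subunit gene. The Pol II median was 0.10 with library weights and -0.057 to 0.12 when 1 library was left out, with 0.12 without WT replicate 2, 0.08 without WT replicate 3 and 0.05 without KO replicate 2. The medians of Pol I, Pol III and the shared subunits were positive under every alternative run. Of the single genes, these turned sign: *POLR2A* (0.020 without WT replicate 1 and 0.028 without KO replicate 3, with -0.34 to 0.028 over the omissions), *POLR2B* (-0.011 with median-of-ratios scaling, -0.021 with quantile normalization, -0.023 without KO replicate 3, with -0.023 to 0.22 over the omissions), *POLR2J* (0.037 and 0.11 without WT replicate 1 and 3, with -0.43 to 0.11 over the omissions), *POLR2J2* (0.12 without WT replicate 2, with -0.25 to 0.12 over the omissions), *POLR2J3* (ENSG00000168255, 0.00073 with library weights), *POLR2L* (-0.026 without KO replicate 3, with -0.026 to 0.33 over the omissions), *POLR2M* (0.10 with library weights, 0.00014 without WT replicate 2 and 0.054 without KO replicate 2, with -0.20 to 0.054 over the omissions) and *POLR3A* (-0.067 with median-of-ratios scaling, -0.061 with quantile normalization, -0.031 with scaling to nuclear genes, -0.068 with library weights, -0.011 without WT replicate 3, with -0.11 without KO replicate 3 to 0.20 without KO replicate 1 over the omissions). The cause was not tested for any of these. The replicate block gave 11 subunit genes at the unadjusted threshold and 0 after adjustment. With this block, 10.9% of all tested genes were higher and 3.48% lower in KO at the unadjusted threshold. Same-numbered libraries did not deviate together in every pair, and they share only a number.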

Other observations

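The balance between the 2 largest subunits of each enzyme varied between libraries within each group. *POLR2A* exceeded *POLR2B* in FPKM by a ratio of 7.68, 4.06 and 5.12 in the WT lines and 4.61, 6.86 and 3.00 in the KO lines. For Pol I, the ratio of *POLR1A* to *POLR1B* was 2.27, 1.75 and 2.47 in the WT lines and 1.68, 2.11 and 1.42 in the KO lines, with a mean of 2.16 ± 0.37 (SD, n = 3) in WT and 1.74 ± 0.35 (SD, n = 3) in KO. For Pol III, the ratio of *POLR3A* to *POLR3B* was 1.60, 2.10 and 1.09 in the WT lines and 1.02, 1.28 and 1.15 in the KO lines. The WT and KO values overlapped for all 3 enzymes.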
